A study of Mus musculus with 2 samples.

Results

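The proteasome subunit genes of C2C12 myoblasts were taken as every gene whose symbol is Psm, 1 letter from a to g and a number, without the immunoproteasome genes Psmb8, Psmb9 and Psmb10. The rule used symbols only, and it found 45 of the 21829 genes with a value. C2C12 is an immortalised mouse myoblast line grown here in DMEM with fetal bovine serum and gentamicin, with no treatment named. The study compared WT cells with a line in which Gne, the gene of the bifunctional enzyme that starts sialic acid synthesis, had been disrupted with Cas9, by an indel that brings an early stop. Polyadenylated RNA of 1 WT and 1 Gne KO culture was sequenced, and the methods describe KO cells expanded from single clones, so clone and genotype cannot be told apart. With 1 library per line, no difference below has a replicate check, an error or a test. In bulk RNA, fewer cells of a type and less RNA per cell cannot be told apart either.

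The proteasome degrades proteins tagged with ubiquitin. Its core particle, the 20S, is a barrel of alpha subunits, which gate the entrance, and beta subunits, of which Psmb5, Psmb6 and Psmb7 carry the peptide-cutting sites. The regulatory particle, the 19S, caps the barrel. Its base unfolds substrates with a ring of ATPases, and its lid removes ubiquitin. In muscle, this system and autophagy are the main routes of protein breakdown, and ubiquitin ligases such as Fbxo32 and Trim63 feed it during atrophy.

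The deposited values were taken as FPKM, a level per transcript length and sequencing depth, so levels of different genes can be set side by side. Their sums were 568410 (WT) and 574144 (KO). The number of reads is not given. Among 406 genes with values between 0.02 and 0.1 FPKM in both libraries, the commonest KO-to-WT ratio was 1.13, which is the depth of WT over that of KO if these values stand for single reads. Gne was at 6.67 FPKM in WT and 7.34 FPKM in the KO-labelled library, so its RNA does not tell which library carries the edit. The 8 myoblast markers summed to 260.9 FPKM in WT and 67.1 FPKM in the KO-labelled library. Myod1 was at 60.0 FPKM in WT and listed at 0 in the KO-labelled library. Des was at 97.6 and 3.84 FPKM and Itga7 at 47.4 and 28.4 FPKM. Cdh15 was at 16.6 and 0.701 FPKM and Chrna1 at 15.3 and 0.917 FPKM. Ncam1 was at 14.7 and 13.0 FPKM and Myog at 0.068 and 0.027 FPKM. Only Myf5 was higher, at 9.14 and 20.3 FPKM. The 7 fibroblast markers summed to 313 and 988 FPKM, with Thy1 and Lum at 0 in both. Most of that difference was in Col1a1, at 9.66 and 273 FPKM, and Col1a2, at 237 and 621 FPKM. Pdgfrb was at 54.5 and 80.2 FPKM and Pdgfra at 10.8 and 12.3 FPKM. The 6 immune and endothelial markers summed to 2.86 and 1.07 FPKM, with Ptprc, Adgre1, Cdh5 and Kdr at 0 in both. Their part in the values below was not tested.

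Proteasome subunit transcripts were abundant and close to equal in both libraries. Of the 45 genes, 43 had a mean of at least 1 FPKM, and the other two, Psma8 and Psmb11, were at or near 0. The 43 levels ran from 10.0 to 399 FPKM in WT, with a median of 95.2, and from 8.86 to 352 FPKM in the KO-labelled library, with a median of 90.6. By mean level, 26 of the 43 stood at or above percentile 90 of the 10542 genes that passed the same filter. Together they held 0.890% of all summed values in WT and 0.842% in the KO-labelled library.

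The log2 fold change, log2((KO + 1)/(WT + 1)), had a median of -0.097 over the 43 subunits, against 0.0061 over all genes past the filter. None of the 43 was more than 2-fold higher, against 2.84% of all genes, and none was more than 2-fold lower, against 3.43%. More than 1.2-fold higher was 1 subunit, Psma4, against 22.5% of all genes. More than 1.2-fold lower were 4, Psmg1, Psmc3, Psmd11 and Psmg2, against 20.5% of all genes. By any amount, 30 subunits were lower and 13 higher in the KO-labelled library, while 49.3% of all genes were lower and 50.7% higher. The differences lay close together: their interquartile range was 0.20, against 0.44 over all genes and 0.40 over the 6696 genes whose mean lay inside the range of the subunits. Those 6696 genes had a median of 25.6 FPKM in WT, against 95.2 FPKM for the subunits. They share the range but not the typical level, and the part of level in the spread was not tested. Of the 43 levels, 40 were within 20% of WT and 23 within 10%, whereas 63.8% and 37.2% of those 6696 genes were. Across the 43 genes the log2 levels of the 2 libraries had a Pearson r of 0.986 and a Spearman rho of 0.986, a description over genes that share both libraries.

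**Figure D1:**
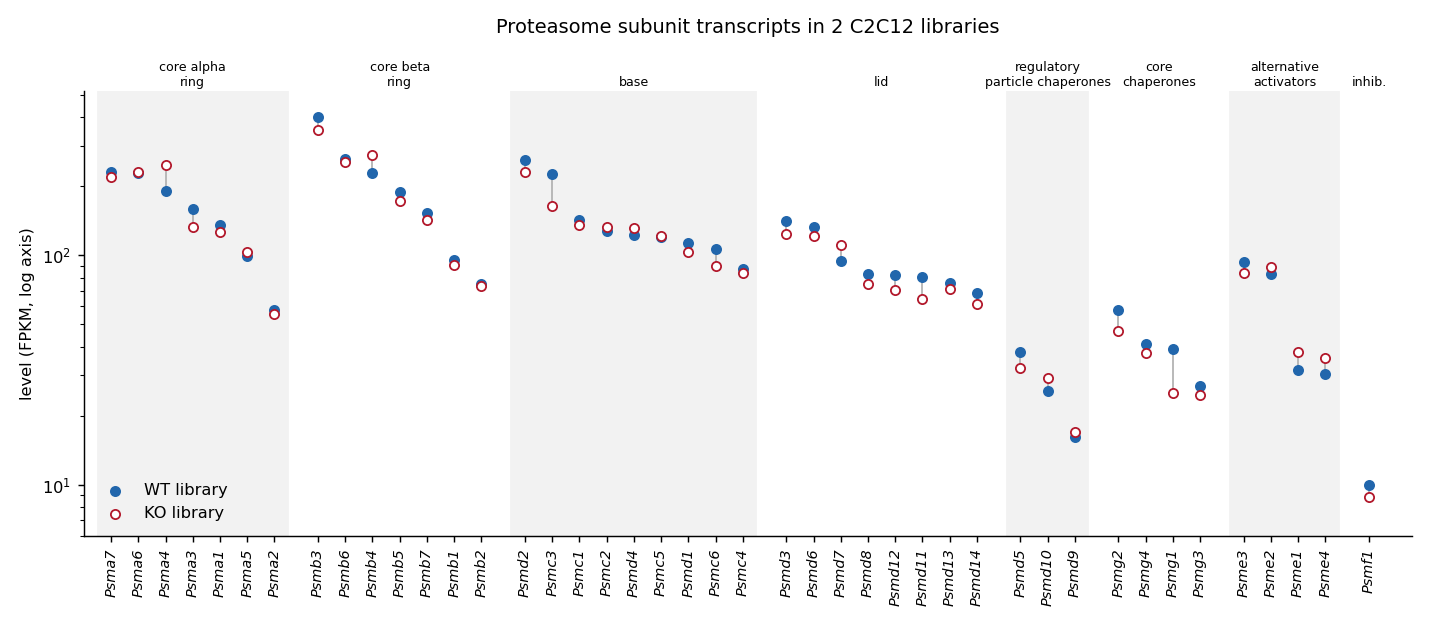
Level of each of the 43 subunits past the filter (FPKM, log axis) in the WT library (filled) and the KO-labelled library (open), grouped by place in the proteasome and sorted by WT level; 1 library each, no error bars. The 2 marks of a gene nearly coincide for most subunits, and the widest gap is that of Psmg1, at 38.9 and 25.1 FPKM.

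In the alpha ring, which forms the outer gates of the core, the 7 measured subunits ran from 57.6 to 230.003 FPKM in WT, with a median log2 fold change of -0.051. Psma4 was at 191 FPKM in WT and 248 FPKM in the KO-labelled library, a log2 fold change of 0.37 and the largest positive difference of all 43. Psma3 was at 160 FPKM in WT and 133 FPKM in the KO-labelled library, a log2 fold change of -0.26. These subunits bracket the ring, since the other five lay between -0.097 and 0.062. Psma6 was at 228 and 229.5 FPKM, nearly the same value, the lowest member, Psma2, at 57.6 and 55.6 FPKM (-0.051), and Psma7 at 230.003 and 219 FPKM (-0.069). Summed over the ring, the level was 1100.5 FPKM in WT and 1115 FPKM in the KO-labelled library. Psma8, the testis form of an alpha subunit, was listed at 0 in both.

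The beta ring, which holds the cutting sites, had 7 measured subunits between 75.2 FPKM (Psmb2) and 399 FPKM (Psmb3) in WT, and Psmb3, a structural subunit, had the highest level of all members. In the KO-labelled library these were at 73.4 FPKM (-0.034) and 352 FPKM (-0.18). The 3 catalytic subunits were each slightly lower in the KO-labelled library. Psmb5, the chymotrypsin-like subunit, was at 188 FPKM in WT and 173 FPKM in the KO-labelled library (log2 fold change -0.12). Psmb6, the caspase-like subunit, was at 263 and 255 FPKM (-0.043). Psmb7, the trypsin-like subunit, was at 153 and 142 FPKM (-0.11). All 3 therefore lay inside the interquartile range of all genes, -0.21 to 0.23. Psmb4 was the only beta subunit with a higher value, at 229 FPKM in WT and 274 FPKM in the KO-labelled library, a log2 fold change of 0.26. The median of the ring was -0.071. Psmb11, the thymus form, was at 0.008 FPKM in WT and listed at 0 in the KO-labelled library.

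The immunoproteasome subunits, which replace the catalytic ones after interferon, are not members and were little expressed. Psmb8 was listed at 0 in both libraries and Psmb9 was at 0.252 and 0.178 FPKM. Only Psmb10, the counterpart of Psmb7, passed the filter, at 7.88 FPKM in WT and 12.3 FPKM in the KO-labelled library, a log2 fold change of 0.58. The 78 genes past the filter within 5 Mb of Psmb10 had a median of 0.24, and subtracting it left 0.35. The Psmb7 level was 19.5 times that of Psmb10 in WT and 11.5 times in the KO-labelled library.

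The base of the regulatory particle had a median log2 fold change of -0.072 over 9 subunits, with WT levels from 87.6 FPKM (Psmc4) to 259 FPKM (Psmd2). Psmc3, 1 of the 6 ATPases, was at 227 FPKM in WT and 164 FPKM in the KO-labelled library, a log2 fold change of -0.47 and the largest difference within the assembled particle. Psmc6, another ATPase, was at 106 and 90.1 FPKM (-0.24). The remaining ATPases lay between -0.072 and 0.059, and the differences within the ring were not tested. Psmd2, the largest scaffold of the base together with Psmd1, was at 259 and 230.5 FPKM (-0.17), and Psmd4, a ubiquitin receptor, at 123 and 131 FPKM (0.090). Psmc4, an ATPase with the lowest level of the base, was at 87.6 and 83.4 FPKM (-0.069).

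Of the 8 lid subunits, 7 were lower in the KO-labelled library, against 49.3% of all genes and 30 of the 43 subunits. The median of the lid was -0.15. Levels of the lid subunits were also the most even of the larger groups, from 68.6 FPKM (Psmd14) to 141 FPKM (Psmd3) in WT. That was a 2.05-fold span, against 3.99-fold in the alpha ring and 5.31-fold in the beta ring. Psmd11, a scaffold of the lid, was at 80.7 FPKM in WT and 64.7 FPKM in the KO-labelled library, a log2 fold change of -0.31. Psmd3, also a scaffold, was at 141 and 124 FPKM (-0.18). Psmd14, the deubiquitinase that strips ubiquitin chains from substrates, was at 68.6 and 61.5 FPKM (-0.15). Psmd7, the inactive partner of Psmd14, was the exception, at 94.7 and 111 FPKM (0.22). As whole particles, the 14 subunits of the core summed to 2504 FPKM in WT and 2475 FPKM in the KO-labelled library, a change of -1.16%. The 17 subunits of the regulatory particle summed to 2065 and 1890.2 FPKM, a change of -8.47%. These sums lean on a few abundant subunits. Psma4 (191 and 248 FPKM) and Psmb4 (229 and 274 FPKM) offset falls in the core. Psmc3 (227 and 164 FPKM) makes up much of the fall in the regulatory particle. The medians of the core and the regulatory particle were -0.060 and -0.14, and the difference between them was not tested.

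Dedicated chaperones assemble the proteasome, and those of the core had a median level of 40.0 FPKM in WT, against 174 FPKM for the core subunits. All 4, Psmg1 to Psmg4, were lower in the KO-labelled library, against 49.3% of all genes and 30 of the 43 subunits. The median log2 fold change of the 4 was -0.21. Psmg1, which pairs with Psmg2 to build the alpha ring, was at 38.9 FPKM in WT and 25.1 FPKM in the KO-labelled library, a log2 fold change of -0.62 and the largest difference of any member. Psmg2 was at 57.9 and 46.9 FPKM (-0.30). The second chaperone pair was nearer to WT, with Psmg3 at 26.9 and 24.5 FPKM (-0.13) and Psmg4 at 41.1 and 37.7 FPKM (-0.12). Chaperones of the regulatory particle differed in sign. Psmd5 was at 37.8 and 32.3 FPKM (-0.22), Psmd9 at 16.1 and 17.0 FPKM (0.066), and Psmd10, also known as gankyrin, at 25.6 and 29.3 FPKM (0.19).

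Alternative activators can replace the regulatory particle on the core. Of these 4, Psme1, Psme2 and Psme4 were higher in the KO-labelled library and Psme3 was lower, with a median log2 fold change of 0.16. By any amount, 50.7% of all genes were higher. Psme1 and Psme2, the subunits of the interferon-inducible PA28 ring, lie 5913 bases apart on chromosome 14. Psme1 was at 31.7 FPKM in WT and 37.9 FPKM in the KO-labelled library (0.25), and Psme2 at 82.7 and 89.1 FPKM (0.11). Psme4, which encodes PA200, was at 30.5 and 35.6 FPKM (0.21), whereas Psme3, the nuclear PA28 gamma, was at 93.7 and 83.4 FPKM (-0.17). Psmf1, a binding partner that inhibits the core in vitro, had the lowest level of the 43, at 10.0 and 8.86 FPKM (-0.16). Psme2b, a near copy of Psme2 outside the rule, was at 4.72 and 5.87 FPKM, and GENCODE vM39 names processed pseudogenes of Psma5, Psmb5, Psmb6 and Psmb7. The quantifier named is RSEM, but the gene annotation it used, and so which of these copies it covered, is not specified. The values of members with such copies are uncertain to that extent.

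**Figure D2:**
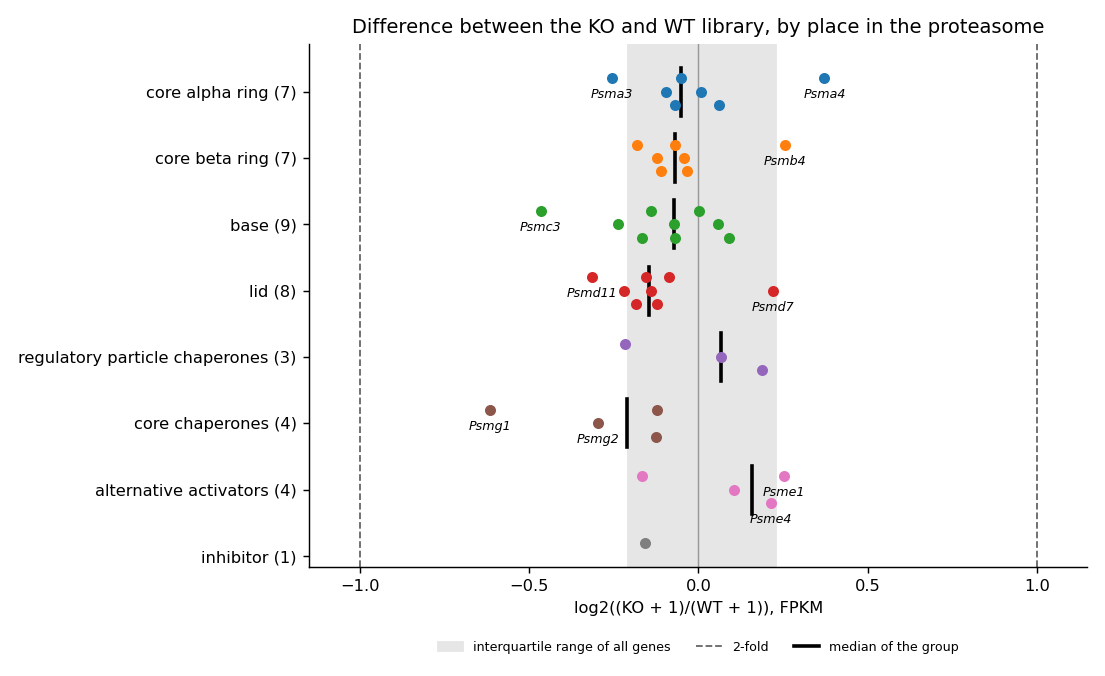
Log2 fold change of each of the 43 subunits (points, x axis, FPKM with a pseudocount of 1), with the group on the y axis and its number of genes in brackets; vertical offsets only separate points, black bars are group medians, and the grey band is the interquartile range of all 10542 genes. All points lie inside the dashed 2-fold limits, and the 5 highest and 5 lowest are named.

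Promoter sequences of RefSeq on GRCm38.p6, from 250 bases before to 50 bases after a transcript's start, were at hand for 37 of the 45 members, in 40 windows. In 30 of the 40 that start is the first base of the gene in the RefSeq gene table, and in 10 it lies inside the gene. Those not matched were Psma8, Psmb1, Psmb2, Psmb7, Psmc3, Psmd3, Psmd7 and Psmg2. Proteasome genes are known as targets of Nfe2l1, a factor that binds the antioxidant response element, and many are served by NF-Y, which binds CCAAT. The element core TGACNNNGC was looked for on both strands and was in 6 of the 40 windows (15.0%), against 12.4% of the 32851 windows of all genes and 14.3% of the 10719 windows of genes past the filter. CCAAT, on both strands, was in 13 of 40 windows (32.5%), against 37.4% and 38.1%. Matches of the 2 motifs overlapped in 0 of the 40 windows. Both shares were thus near those of other promoters. CpG dinucleotides, with a median of 19 per window, were more frequent than in all windows (7) and near the 21 of genes past the filter.

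The 100 bases before the first base of the gene are shown for 4 members: the catalytic Psmb5, which holds the element core, Psmb3, the most abundant member, which holds CCAAT, and the members with the most positive and most negative difference, Psma4 and Psmg1. Capitals mark the motif, each line runs 5′ to 3′ on the strand of the gene, and in the lines of Psma4 and Psmg1 neither motif is present. The places are chr14:54617996-54618095 (minus strand) for Psmb5, chr11:97703334-97703433 (plus strand) for Psmb3, chr9:54950681-54950780 (plus strand) for Psma4 and chr16:95990961-95991060 (minus strand) for Psmg1.
Psmb5: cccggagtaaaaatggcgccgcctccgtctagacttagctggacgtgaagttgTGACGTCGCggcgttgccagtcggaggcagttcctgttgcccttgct
Psmb3: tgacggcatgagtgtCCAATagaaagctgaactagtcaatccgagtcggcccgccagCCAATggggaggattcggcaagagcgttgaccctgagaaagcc
Psma4: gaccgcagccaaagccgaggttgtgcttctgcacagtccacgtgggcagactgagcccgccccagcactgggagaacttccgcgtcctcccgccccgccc
Psmg1: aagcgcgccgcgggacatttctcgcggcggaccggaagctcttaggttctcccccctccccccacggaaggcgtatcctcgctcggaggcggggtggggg
The match in Psmb5 begins 47 bases before the first base of the gene, and those in Psmb3 begin 85 and 43 bases before it. In Psmb6, also catalytic, the element core begins 24 bases after the first base of the gene, since the transcript of its window starts 33 bases after it. A match is a description of the letters, not of a bound site. The other windows with the element core were those of Psmd9, Psme4, Psmd12 and Psmc6, with log2 fold changes of 0.066, 0.21, -0.22 and -0.24.

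The 45 members lie on 16 chromosomes, with 8 on chromosome 11 and 6 each on chromosomes 2 and 14. Neighbouring genes share shifts between these libraries in places, so each member was set beside the median log2 fold change of its neighbours, the 14 to 155 genes past the filter no farther than 5 Mb away. For 40 of the 43 members that median was within 0.2 of 0. The exceptions include the members with the most positive and the most negative value. Psma4, on chromosome 9, had neighbours with a median of 0.30 over 78 genes, and its own 0.37 became 0.068 after subtraction. Psmd7, on chromosome 8, had neighbours at 0.28 over 97 genes, and its 0.22 became -0.059. Psmg1, on chromosome 16, had neighbours at -0.29 over 37 genes, and its -0.62 became -0.32. Psmc3, on chromosome 2, had neighbours at -0.14, and its -0.47 became -0.32. After subtraction 28 of the 43 members were lower, against 50.0% of the 10363 genes so treated, and 15 were higher. The members then had a median of -0.059, and 4 of them changed sign. The largest remaining values were 0.36 for Psme1 and 0.26 for Psmb4 on the positive side and -0.32 for Psmd1, Psmg1, Psmc3 and Psmd11 on the negative side.

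**Figure D3:**
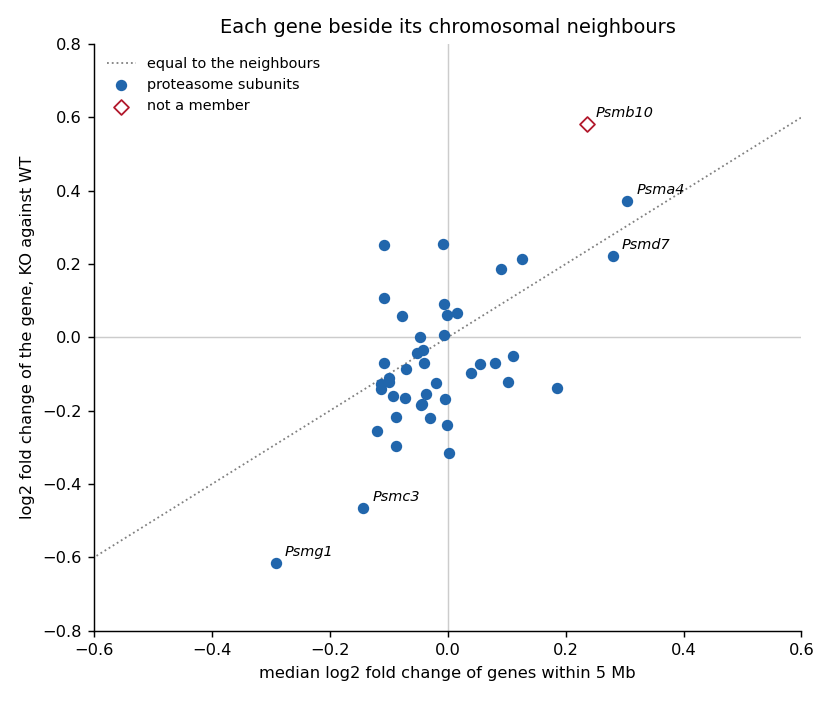
Log2 fold change of each subunit (y axis) against the median log2 fold change of the genes within 5 Mb (x axis); the dotted line marks equality, and the diamond is Psmb10, which is not a member. Most subunits sit within 0.2 of 0 on the x axis, and Psma4 and Psmd7 lie near the line, with neighbours at 0.30 and 0.28.

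Of the 15 genes reported here that work with the proteasome without being members, none was more than 2-fold higher or lower. Of all genes, 2.84% were higher and 3.43% lower by that limit, so few would be looked for among 15. More than 1.2-fold higher was 1, Ubqln2 (0.41), against 22.5% of all genes. More than 1.2-fold lower was 1, Txnl1 (-0.30), against 20.5%. Rad23b, which shuttles ubiquitinated proteins to the proteasome, was at 102 FPKM in WT and 109 FPKM in the KO-labelled library (log2 fold change 0.093). Adrm1, a ubiquitin receptor of the base, was at 105 and 104 FPKM (-0.019), Pomp, the maturation factor of the core, at 67.4 and 61.6 FPKM (-0.13), and Usp14, a deubiquitinase of the base, at 62.5 and 59.2 FPKM (-0.077).

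Over the RNA of 12 genes known to control proteasome genes, the median log2 fold change was 0.0096. The activity of their products was not measured. Nfe2l1 was at 80.9 FPKM in WT and 78.7 FPKM in the KO-labelled library (log2 fold change -0.039). Ddi2, the protease that activates its product, was at 10.9 and 10.6 FPKM (-0.033), and Ngly1, which removes its glycans, at 13.9 and 14.6 FPKM (0.065). Of the 12 genes on that list none was more than 2-fold higher or lower, against 2.84% and 3.43% of all genes. By more than 1.2-fold 1, Syvn1, was lower (-0.40), against 20.5% of all genes, and none was higher, against 22.5%. Sel1l was at 19.6 and 23.2 FPKM (0.24). Among ubiquitin genes and activating enzymes, Ubb was at 257 and 275 FPKM, Uba1 at 177 and 180.4 FPKM, and Uba6 at 8.72 and 11.9 FPKM (0.41). Vcp, the segregase that hands substrates to the proteasome, was at 231 and 239 FPKM (0.051). The median over Vcp and 8 cofactors was 0.072.

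Muscle ubiquitin ligases had an interquartile range of 0.39 over the 9 of 12 that passed the filter, against 0.20 for the subunits and 0.44 for all genes. Their median level in WT was 11.9 FPKM, against 95.2 FPKM for the subunits, and the part of level in the spread was not tested. By more than 1.2-fold, 4 of the 9 were higher, against 22.5% of all genes, and 2 were lower, against 20.5%. None was more than 2-fold higher or lower, against 2.84% and 3.43% of all genes. Fbxo32, the atrophy ligase atrogin-1, was at 5.50 FPKM in WT and 3.27 FPKM in the KO-labelled library (-0.61), and Trim63, or MuRF1, was at 0.326 and 0.15 FPKM, below the filter. Nedd4 was at 195 and 259 FPKM (0.41), Trim32 at 14.3 and 21.0 FPKM (0.53) and Cbl at 7.56 and 12.1 FPKM (0.61). With the median of their neighbours subtracted, Cbl was at 0.22, Fbxo32 at -0.33, Nedd4 at 0.28 and Trim32 at 0.54.

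Other large complexes were similar in scale. The COP9 signalosome and the initiation factor eIF3 share the architecture of the lid. Over 10 COP9 genes the median log2 fold change was -0.0089 with an interquartile range of 0.19, and over 13 eIF3 genes it was -0.050 with a range of 0.23. For the chaperonin CCT, which folds actin and tubulin, 7 of 8 genes passed the filter with a median of -0.18 and a range of 0.26. None of these genes was more than 2-fold higher or lower, against 2.84% and 3.43% of all genes. Their values ran from -0.53 (Cct8) to 0.33 (Cct2). The range of 0.20 over the 43 subunits lay between those of COP9 and eIF3, and no difference between the lists was tested.

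**Figure D4:**
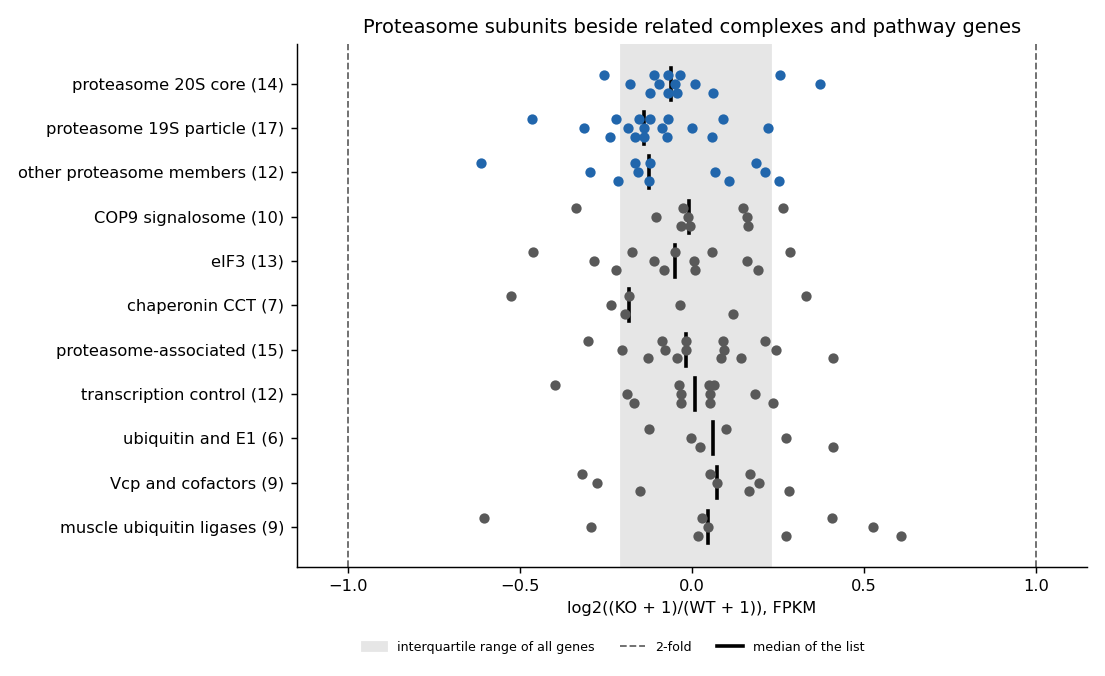
Log2 fold change (x axis, FPKM with a pseudocount of 1) of the genes past the filter in 3 proteasome groups (blue) and 8 related lists (grey), with the number of genes in brackets on the y axis; bars are medians, the grey band is the interquartile range of all genes. All genes shown lie inside the dashed 2-fold limits.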

How the data were processed

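The study sequenced polyadenylated RNA of WT and Gne KO C2C12 cells, 1 library each. The submitters' processing notes name FastQC, Trim Galore 0.6.6, STAR 2.7.9a and RSEM 1.3.3 and the build GRCm38, whereas the methods name GRCm39. The authors trimmed, aligned and quantified the reads and deposited values by gene symbol for each library, taken here as FPKM. No unit is stated, and FPKM was inferred from the values, whose totals differ between the libraries.

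Where a symbol stood on more than 1 of the 21853 rows (24 extra rows), the row of higher mean was used. A pseudocount of 1 and a filter at a mean of 1 FPKM were set, with no further scaling. The 2-fold limit is the study's, without the adjusted p-value that the study required beside it, and 1.2-fold was added. With 1 library per line nothing was tested. Values were to be given for the catalytic subunits, the highest and lowest level of each subcomplex and the 5 largest differences in each direction. The other members and list genes with values were picked after these were seen. Members, lists and limits were chosen with earlier results of these data known. Gene positions came from RefSeq on GRCm38.p6, for 10363 of the 10542 genes past the filter, and the names of pseudogenes from GENCODE vM39. 1 gene of the list of associated genes is not reported here. The steps were tested on simulated data. Tools were pandas 2.3.3, numpy 2.4.6 and matplotlib 3.10.9 under Python 3.11.15. Alternatives concerned the pseudocount, filter, scaling, membership, neighbours and repeated symbols.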

Additional observations from a re-analysis of the deposited data

How the results depend on the processing

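With 1 library per line, no replicate could be left out and no error could be given. The pseudocount (0.1 and 5), the filter (none, and a mean of at least 5 FPKM), 2 scalings, the membership, neighbouring genes and repeated symbols were varied. The median over the subunits stayed below 0 in these 10 alternatives, from -0.11 with equal column totals to -0.059 with the neighbour median subtracted, and 0 subunits were beyond 2-fold in each. Of the counts beyond 1.2-fold, the 4 lower subunits became 2 with subunits of the 26S particle only, where fewer genes were counted. They were 5 with equal column totals, where Psma3 (-0.27) joined, and 4 with the neighbour median subtracted, where Psmd1 (-0.32) entered and Psmg2 (-0.21) left. The 1 higher subunit became 2 with the immunoproteasome genes added, the second being Psmb10, and 2 with the neighbour median subtracted, there Psme1 (0.36) and Psmb4 (0.26, at the limit) in place of Psma4. Psma4, Psmd7 and Psmg1 each moved by more than the interquartile range of the subunits under that subtraction. In 6 of the 43 subunits the sign changed in some alternative. No paired analysis was possible because each line has 1 library and no test was run.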
